A study of Mus musculus with 6 samples.

Results

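Ano1 (anoctamin 1, ENSMUSG00000031075) was followed by its gene symbol through single-cell RNA libraries of mouse collecting lymphatic vessels and the tissue around them. It is 1 of 31017 gene symbols in the count matrices. Its transcripts were read as UMIs (unique molecular identifiers, 1 per captured transcript) in 24488 droplet barcodes kept for having 500 or more genes and no more than 10% of UMIs from mitochondrial genes. Of these, 761 barcodes held 2202 Ano1 UMIs between them. The vessels ran in the dermis from the inguinal to the axillary lymph node of C57BL/6 mice, and were made visible with Evans Blue dye, dissected and digested with enzymes. Mice aged 6 weeks (young), 12 months (middle-aged) and 18 months (aged) gave 2 libraries per age, 1 carrying a male and 1 a female label, 6 in all. No genotype or drug was compared. The number of mice behind a library is not given in the sources used here, so p-values measure only the spread between these libraries, which may be technical. The labels credit the 18-month mice to the National Institute on Aging, so source and age cannot be told apart.

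Ano1 encodes a chloride channel of the plasma membrane that is opened by a rise of calcium in the cell. In smooth muscle, where chloride is held above its equilibrium, an open Ano1 channel lets chloride leave and depolarises the cell, and in lymphatic muscle this current is known as a driver of the pacemaker potential before each contraction. In secretory epithelia the same channel passes chloride across the apical membrane, and it is also a classical marker of the interstitial cells of Cajal, the pacemaker cells of the gut. Calcium reaches the channel from stores through IP3 receptors and from outside through voltage-gated calcium channels.

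The gene lies on the minus strand of chromosome 7, at chr7:144588549-144751974 in GRCm38 (GENCODE annotation). An antisense gene, Gm44930, lies inside it on the plus strand at chr7:144742113-144750008, so reads of the pair could not be told apart if strand was not used in counting. The sequence before the start that RefSeq gives for Ano1 is shown as genomic context of the gene followed here, since no deposited value measures the promoter itself. It lies inside the annotated gene, because a longer annotated transcript begins upstream of it, at the gene's end at 144751974. The sequence is the stretch chr7:144738593-144738823 of GRCm38.p6 from the RefSeq promoter table, read 5′ to 3′ on the minus strand and ended before the exon at which that start lies, with GC boxes (GGGCGG, the motif bound by Sp family factors) in capitals.

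Ano1 upstream: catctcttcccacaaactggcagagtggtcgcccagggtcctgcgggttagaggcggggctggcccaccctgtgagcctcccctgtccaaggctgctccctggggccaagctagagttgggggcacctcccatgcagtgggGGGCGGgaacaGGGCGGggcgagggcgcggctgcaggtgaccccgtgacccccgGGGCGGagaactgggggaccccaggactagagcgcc

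The stretch is 231 bases long and 71.0% G or C, against a median of 51.9% over the 32851 promoters of the same length. It holds 3 GC boxes on the gene's strand and none on the other, and 30.0% of all promoters hold at least 1 on either strand. The E-box CANNTG was found at 1 site, which matches the motif on both strands, as in 63.6% of promoters. No TATAAA and no CArG box (the serum response factor motif of muscle genes) were found on either strand, and 11.8% and 1.42% of promoters hold these. Such matches describe letters in this window only.

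The 6 libraries held between 9616652 and 28921825 UMIs, and 999 to 8228 barcodes were kept in each, with median depths of 2536 to 7508 UMIs. Xist stood at 883 to 1402 CPM (counts of a gene per 1000000 UMIs of the library or sum) in the libraries labelled young female, middle-aged male and aged female, and at or under 0.255 CPM in the other 3, where Y-linked genes were present instead. The middle-aged pair therefore goes against its sex labels, and its members are called by their labels throughout. Scrublet marked 590 barcodes (2.41%) as possible doublets, which stayed in unless stated, and 63 barcode sequences occurred in more than 1 library. Low-count barcodes of 10 to 100 UMIs, which mostly hold free RNA, carried Ano1 at 2.37 CPM in the library labelled middle-aged female, 3.34 in aged male, 4.15 in young male, 17.0 in the library labelled middle-aged male, 21.8 in young female and 113 in aged female.

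Barcodes were sorted into types by their UMIs of marker genes, none of which is Ano1. Smooth muscle held at least 10 UMIs of Acta2, Myh11 and Tagln together with no Epcam or Krt14 (239 barcodes), and epithelium held at least 1 Epcam UMI with at least 4 of Krt8 and Krt18 (599 barcodes). Of 7 further smooth muscle genes not used in the gate (Cnn1, Mylk, Myocd, Des, Lmod1, Smtn and Synpo2), all were detected in the smooth muscle barcodes of every library, at 1865 to 4871 CPM in sum. The same barcodes also carried fibroblast genes at 141 to 2747 CPM, endothelial genes at 114 to 789 CPM and pericyte genes at 999 to 2516 CPM, and 94 of the 239 met the gate of another type as well. The epithelial gate held 7 of 7 further epithelial genes in each of its libraries, at 2518 to 6322 CPM, with fibroblast genes at 59.6 CPM in young female, 1970 CPM in the library labelled middle-aged male and 121 CPM in aged female. Of its barcodes 98 of 599 also met another gate, 63 of them in aged female, where 35 met the Schwann gate and 31 the basal gate, and the part of these barcodes in the epithelial level of Ano1 by library was not tested. In a sum over cells of a type, fewer transcripts per cell and fewer true members of the type cannot be told apart.

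Ano1 was concentrated in a few types of cell. Over libraries with at least 5 barcodes of a type, its level was 279 ± 178 CPM (SD, n = 3) in barcodes of the pericyte gate, the mural cells of small vessels, 196 ± 19.6 CPM (n = 3) in epithelium, 147 ± 119 CPM (n = 3) in keratin 5, 14 and 17 positive basal epithelium, 102 ± 24.5 CPM (n = 6) in smooth muscle and 34.5 ± 16.9 CPM (n = 6) in blood endothelium. T or NK cells followed at 0.933 ± 1.70 CPM (n = 6), fibroblasts at 0.782 ± 0.668 CPM (n = 6), macrophages at 0.772 ± 0.818 CPM (n = 6) and dendritic cells at 0.396 ± 0.970 CPM (n = 6). The ranges over libraries of each pair of neighbours in this order overlapped, from the pericyte gate (151 to 483 CPM) and epithelium (175 to 214 CPM) through basal epithelium (31.6 to 270 CPM) to smooth muscle (56.9 to 127 CPM) and blood endothelium (19.6 to 66.2 CPM). Epithelium and smooth muscle, which are not neighbours, did not overlap. The means of the types from T or NK cells down to dendritic cells lay within 1 SD of each other. Between blood endothelium and fibroblasts the level dropped by 5.24 ± 0.37 on the log2 scale (SE; edgeR adjusted p = 3.2e-14). Here and throughout, the SE of an edgeR fold was calculated back from the fold and its F statistic.

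**Figure D1:**
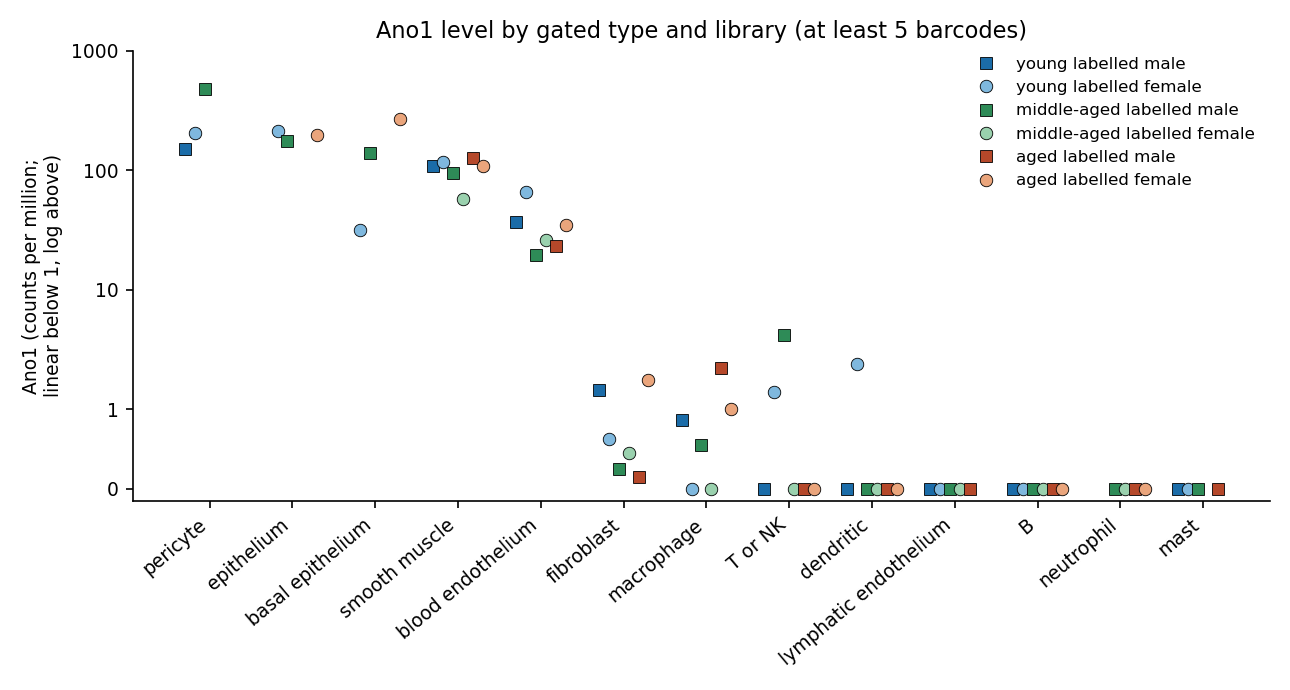
Ano1 level (CPM; the axis is linear below 1 and logarithmic above) in each gated type, 1 point per library with at least 5 barcodes of that type, squares for libraries labelled male and circles for those labelled female. Pericyte, epithelial, basal epithelial, smooth muscle and blood endothelial points all lie at or above 19.6 CPM, and every point of the other types lies at or under 4.21.

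No Ano1 UMI was found in lymphatic endothelium, the lining of these vessels. Its 242 barcodes held 2025052 UMIs in sum, and a count of 0 there allows a level of up to 1.48 CPM and a share of up to 1.24% of barcodes with an Ano1 UMI. Against that limit of 3 counts over the group, Ano1 was at least 64.5-fold higher in smooth muscle, at least 131-fold higher in epithelium and at least 25.7-fold higher in blood endothelium, each taken over all libraries. B cells (330 barcodes) and mast cells (100 barcodes) also had none, and 262 neutrophil barcodes had 1 UMI. Fibroblasts, the most numerous type, held 35 Ano1 UMIs in 10311 barcodes, a share of 0.330% with an Ano1 UMI (exact 95% interval 0.228 to 0.460%), and macrophages 0.172% (0.0787 to 0.326%). Intervals and limits here cover counting error only. The shares in smooth muscle and epithelium, given next, lie far above these, at pooled median depths of 3741 UMIs in fibroblasts and 2318 UMIs in macrophages.

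In smooth muscle Ano1 was present in every library. Its level was 108 CPM in young male (55 UMIs in 100 barcodes), 117 CPM in young female (9 in 17), 95.1 CPM in the library labelled middle-aged male (10 in 53), 56.9 CPM in the library labelled middle-aged female (17 in 36), 127 CPM in aged male (13 in 26) and 108 CPM in aged female (3 in 7). The library labelled middle-aged female was lowest, and the other 5 lay between 95.1 and 127 CPM. In 4 libraries with at least 20 barcodes the mean was 96.8 ± 29.7 CPM (SD). Against the mean of the 9 other types fitted, Ano1 was higher in smooth muscle by 6.27 ± 0.50 on the log2 scale (SE; edgeR adjusted p = 2.1e-12; 45 sums of 6 libraries). The pericyte gate and basal epithelium, whose mean levels were higher (279 and 147 CPM), lacked 3 libraries with 20 barcodes and were not fitted. Several fitted types held Ano1 at or near 0, so the size of this difference depends on the types fitted and on the model's prior count. In that fit 18.0% of the 9411 genes tested were called higher in smooth muscle and 9.55% lower, and the median of all genes was 0.05. With DESeq2's size factors the median was 0.24, the share of calls that were higher went from 65.3% to 80.1%, and Ano1 stood 5.27 ± 0.47 above the mean.

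Epithelium was found in 3 libraries only, those labelled young female, middle-aged male and aged female, which are the 3 with Xist. Its Ano1 level was 214 CPM in young female (230 UMIs in 100 barcodes), 175 CPM in the library labelled middle-aged male (355 in 314) and 197 CPM in aged female (1129 in 185). The 3 levels were close, with the library labelled middle-aged male lowest. Ano1 was higher than in the mean of the other types fitted by 7.63 ± 0.38 on the log2 scale (SE; edgeR adjusted p = 5.9e-18), in a contrast where 31.5% of genes were called higher and 13.3% lower. The pericyte gate and basal epithelium were not among those types. With DESeq2 the split of calls went from 70.3% to 53.2% higher, the median of all genes from 0.26 to 0.06, and Ano1 stood at 6.22 ± 0.49. Each age has 1 epithelial library, so no age test was possible there.

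Most Ano1 UMIs of the series lay in epithelium, and the libraries with epithelium held the highest totals. Epithelial barcodes held 77.8% of all kept Ano1 UMIs, and 77.7%, 77.7% and 94.6% of those in young female, the library labelled middle-aged male and aged female. Kept barcodes held 296, 457 and 1193 Ano1 UMIs in these libraries against 31 in aged male, 36 in the library labelled middle-aged female and 189 in young male. Smooth muscle gave 4.86% and blood endothelium 6.86% of the Ano1 UMIs over all libraries. Where there was no epithelium, they led: smooth muscle held 29.1% and blood endothelium 47.6% in young male, 47.2% and 33.3% in the library labelled middle-aged female, and 41.9% and 12.9% in aged male.

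**Figure D2:**
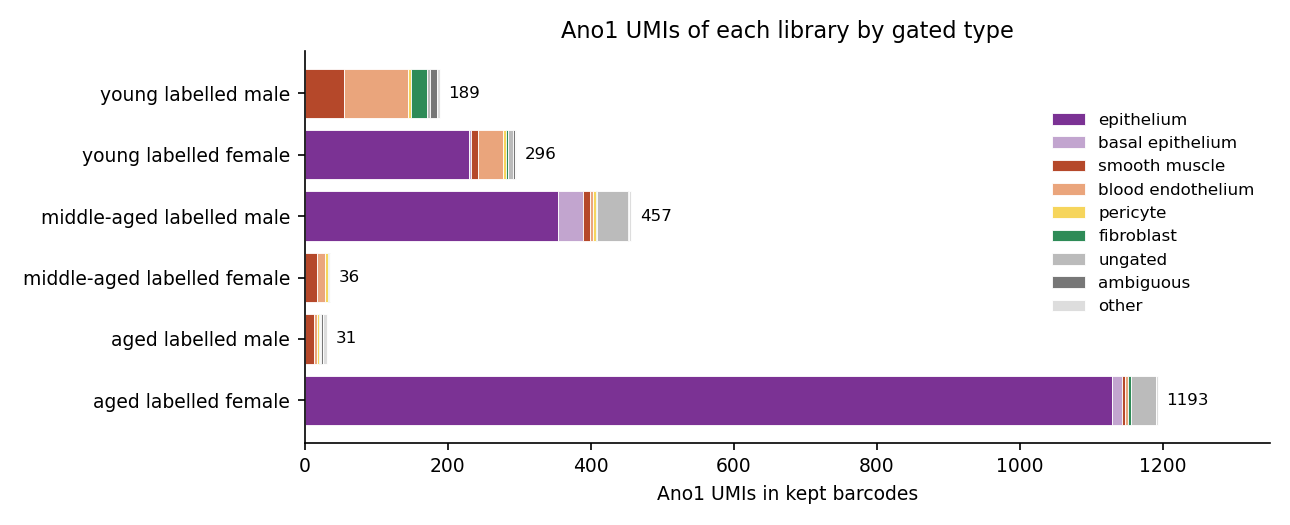
Ano1 UMIs in kept barcodes of each library, split by gated type, with the total printed at the end of each bar. The 3 longest bars (1193, 457 and 296 UMIs) are the libraries with epithelium, which fills most of each.

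The level of Ano1 in smooth muscle was lower than in epithelium by 1.22 on the log2 scale (−1.22 ± 0.43, SE; edgeR adjusted p = 0.0294). In the same contrast 15.0% of the 9411 genes were called higher and 16.1% lower in smooth muscle, and the median of all genes was −0.23. The call was lost with DESeq2 (−0.86 ± 0.57, adjusted p = 0.278), under which 69.0% and not 48.1% of calls were higher and the median gene stood at 0.13. Leaving out young male (−0.85, adjusted p = 0.243), the library labelled middle-aged male (−1.02, 0.228), the library labelled middle-aged female (−0.96, 0.142) or aged female (−1.16, 0.0689) also ended it, as did leaving out the barcodes that met another gate (−0.73, adjusted p = 0.283). Only the library labelled middle-aged male held at least 20 barcodes of both types, with 95.1 CPM in smooth muscle and 175 CPM in epithelium. The other epithelial sums came from libraries with Xist and the other smooth muscle sums from libraries without it. A sex or library difference within 1 of these types therefore cannot be told apart from a difference between the types.

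The share of barcodes with an Ano1 UMI was also higher in epithelium, and it moved with depth. In smooth muscle it was 38.0% in young male, 41.2% in young female, 13.2% and 30.6% in the libraries labelled middle-aged male and female, 42.3% in aged male and 42.9% in aged female. In epithelium it was 66.0% in young female, 55.1% in the library labelled middle-aged male and 85.4% in aged female, whose epithelial barcodes had a median of 17510 UMIs against 6634 and 5256. Barcodes with at least 2000 UMIs were then thinned to 2000, and shallower ones were left out. The epithelial shares came to 35.2%, 30.6% and 30.6%, and the aged female library no longer stood above the others. Over all libraries the thinned share was 31.4% in epithelium and 18.3% in smooth muscle, from 66.3% and 32.2% unthinned. The unthinned shares include the shallower barcodes, so the sets of barcodes differ. The thinned share in macrophages was 0.187%.

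**Figure D3:**
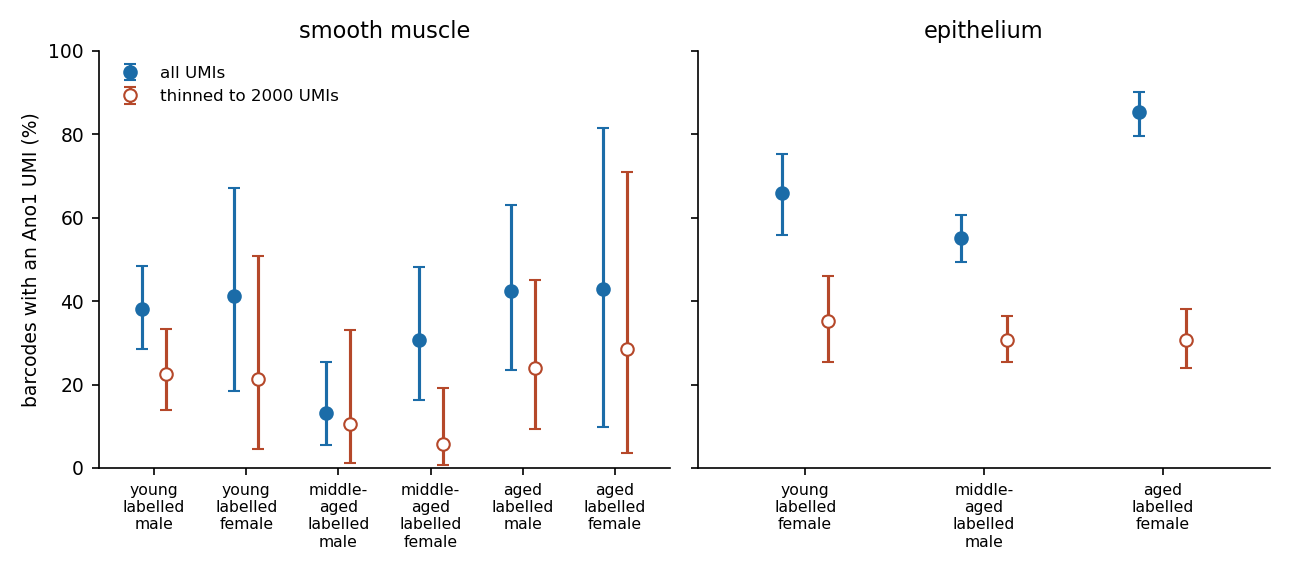
Share of barcodes with at least 1 Ano1 UMI (%) in smooth muscle (left) and epithelium (right) per library. Filled points are for all UMIs, and open points for thinning to 2000 UMIs, with barcodes under 2000 UMIs left out. Bars are exact 95% intervals. The 3 epithelial libraries span 55.1 to 85.4% with all UMIs and 30.6 to 35.2% after thinning.

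Blood endothelium ranked next, and its Ano1 UMIs lay in barcodes that also held pericyte genes. The level was 36.9 CPM in young male, 66.2 in young female, 19.6 and 26.1 in the libraries labelled middle-aged male and female, 23.4 in aged male and 34.6 in aged female. Smooth muscle was higher than blood endothelium by 1.40 ± 0.38 on the log2 scale (SE; edgeR adjusted p = 0.00692; 8.28% of genes called higher), and by 5.25 ± 0.59 (adjusted p = 2.7e-08) once endothelial barcodes with any UMI of the pericyte genes Rgs5, Kcnj8, Higd1b or Cspg4 were left out. Of 673 endothelial barcodes with no pericyte-gene UMI, 4 held Ano1 (2.78 CPM, exact Poisson 95% interval 0.902 to 6.48). The level was 22.4 CPM (13.0 to 35.8) with 1 to 3 such UMIs, 94.0 CPM (71.4 to 122) with 4 to 9 and 90.1 CPM (70.4 to 114) with 10 or more.

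This held in each library. Endothelial barcodes with at least 4 pericyte-gene UMIs had 79.3 CPM of Ano1 against 5.28 CPM with none in young male. Those with at least 4 had 136 CPM in young female, 60.1 and 102 CPM in the libraries labelled middle-aged male and female, 83.7 CPM in aged male and 115 CPM in aged female, and those with none were at 0 in all 5. The mean difference was 95.3 CPM, higher in 6 of 6 libraries (exact two-sided sign-flip permutation test p = 0.0312, the smallest that 6 libraries can give). The groups did not overlap. Barcodes with at least 4 pericyte-gene UMIs were also deeper, with median depths of 3275 to 6863 UMIs against 1612 to 3726, and after thinning to 2000 UMIs the means were 115 ± 57.5 CPM (SD) and 0. Pericyte-gene UMIs were counted before thinning. Barcodes under 2000 UMIs were left out of the thinned values. These were 339 of 673 with no pericyte-gene UMI, 11 of 141 with 4 to 9 and 4 of 144 with 10 or more. Whether such a barcode held 1 cell or an endothelial cell and a pericyte together was not tested. Without the barcodes that Scrublet marked, the mean difference was 92.3 CPM.

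Within smooth muscle the relation to pericyte genes was weaker. With at least 4 pericyte-gene UMIs against fewer, Ano1 stood at 145 against 86.6 CPM in young male, 136 against 77.6 in young female, 171 against 104 in aged male and 42.6 against 59.5 in the library labelled middle-aged female. It was higher in 3 of 4 libraries, by 41.7 CPM on average (exact sign-flip permutation test p = 0.250, where 4 libraries cannot go below 0.125), and thinned to 2000 UMIs the mean difference was −12.6 CPM. Smooth muscle barcodes with no pericyte-gene UMI at all still held Ano1 at 62.6 CPM (40.5 to 92.4; 25 UMIs in 105 barcodes), well above the 2.78 CPM of such endothelial barcodes. The pericyte gate itself was small, with 17 Ano1 UMIs in 40 barcodes, and the 3 libraries with at least 5 of them ranged from 151 to 483 CPM.

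**Figure D4:**
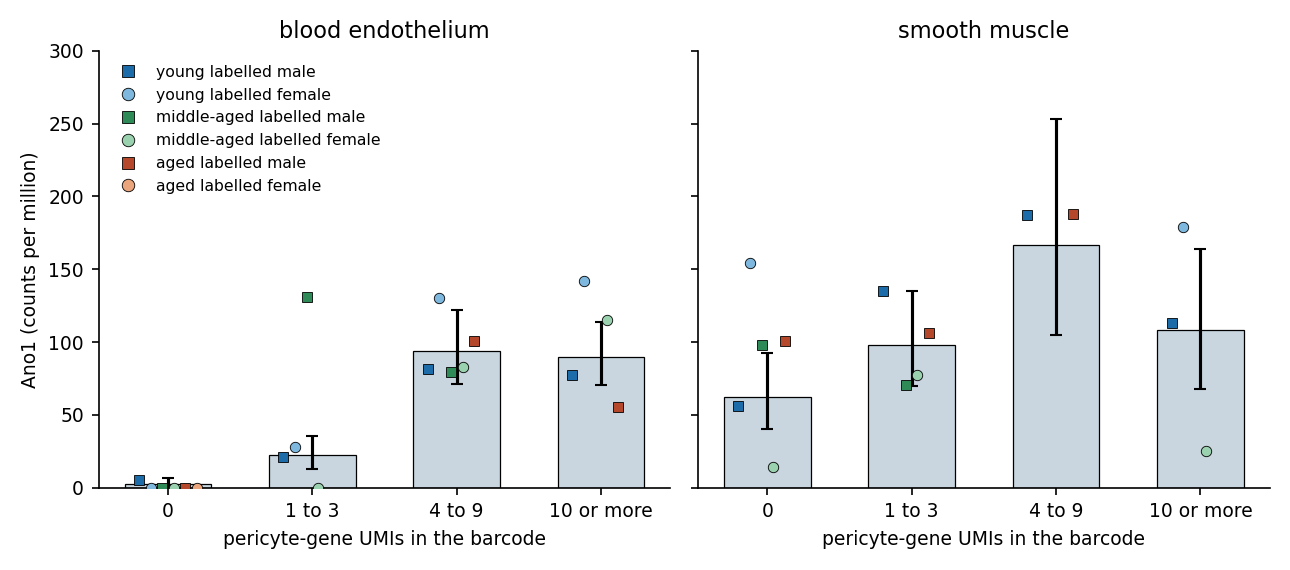
Ano1 level (CPM) by the number of UMIs of Rgs5, Kcnj8, Higd1b and Cspg4 in a barcode, in blood endothelium (left) and smooth muscle (right); bars pool all libraries with exact Poisson 95% intervals, and points are libraries with at least 5 barcodes in the bin. In blood endothelium the bars rise from 2.78 to over 90, and in smooth muscle they start at 62.6.

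Other anoctamins, the family of channels and lipid scramblases to which Ano1 belongs, had other distributions over the types. In the fit of types, Ano6, the scramblase that exposes phosphatidylserine, and Ano10 were the only other members with enough UMIs to test. Neither passed between smooth muscle and epithelium. Ano6 stood at 82.9 ± 30.6 CPM (SD, n = 6) in smooth muscle, 74.5 ± 23.3 CPM (n = 3) in epithelium and 88.3 ± 8.53 CPM (n = 6) in blood endothelium, and Ano10 at 15.8 ± 10.6, 15.9 ± 5.08 and 15.8 ± 5.76 CPM. Ano6 was also present in lymphatic endothelium (81.5 CPM) and fibroblasts (68.9 CPM), where Ano1 was at 0 and at 0.782 CPM. Of the remaining 7, Ano2 reached 49.4 CPM in mast cells and Ano3 11.1 CPM in fibroblasts, and both were near 0 in smooth muscle (0 and 0.327 CPM) and epithelium (0.311 and 0.281 CPM).

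The genes that surround Ano1 in its pathway were compared between smooth muscle and epithelium, both of which carry it. Of 90 genes in 7 lists (without Ano1), 58 could be tested between smooth muscle and epithelium, and 29 were higher and 11 lower in smooth muscle, against 15.0% and 16.1% of all genes. The call of a gene that passes the filter on low counts through 1 of these types alone is not independent of the filter. This touched 9 of the 58 (Pln, Cacna1c, Cacna1g, Cacna1h, Cacnb2, Scn3a and Slc4a3 through smooth muscle, Cacnb3 and Aqp5 through epithelium), and of the other 49 genes 22 were higher and 10 lower. No called member changed sign with DESeq2. Without the library labelled middle-aged male, which alone held at least 20 barcodes of both types, 23 were higher and 11 lower. The other sums of the 2 types came from libraries of different sex by Xist, so type and sex cannot be told apart there. The lists were drawn up with earlier results of these data known, and their counts are a description.

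Among the genes that load and move chloride, 13 of 19 were tested. Of the 12 that did not depend on 1 type for the filter, 4 were higher in smooth muscle and 2 lower. Slc12a2, the Na-K-2Cl cotransporter NKCC1 that brings chloride into a cell, was lower in smooth muscle by 5.59 on the log2 scale (−5.59 ± 0.54; edgeR adjusted p = 1.5e-10). It stood at 5091, 1924 and 477 CPM in the epithelium of young female, the library labelled middle-aged male and aged female, and at 19.6 to 66.6 CPM in smooth muscle. Slc4a3, an anion exchanger that takes up chloride for bicarbonate, passed the filter through smooth muscle only, and its levels are a description. They were 64.9 ± 44.3 CPM (SD, n = 6) in smooth muscle against 2.36 ± 0.759 CPM (n = 3) in epithelium. Clcn3 was lower (−2.43 ± 0.42), Slc12a4, Lrrc8a, Ttyh2 and Oxsr1 were higher, and Cftr, the chloride channel opened by cyclic AMP, was at 0 in both.

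Of 25 genes that supply calcium 19 were tested, and 7 of these passed the filter through 1 type only. Of the other 12, 6 were higher in smooth muscle and 2 lower. The IP3 receptors split by member. Itpr1 was higher in smooth muscle by 2.44 ± 0.39 (edgeR adjusted p = 5.0e-06; 202 ± 81.4 against 37.3 ± 5.20 CPM), while Itpr2 (−2.47 ± 0.38) and Itpr3 (−2.31 ± 0.54) were lower. The L-type channel subunit Cacna2d1 (4.11 ± 0.49) was also higher in smooth muscle. For genes that passed the filter through smooth muscle only, levels alone are given, as a description. The L-type subunits Cacna1c and Cacnb2 stood at 64.6 and 41.1 CPM in smooth muscle against 0.523 and 0 CPM in epithelium. The T-type channels Cacna1g and Cacna1h stood at 27.4 and 39.3 against 0.562 and 0 CPM. The sodium channel Scn3a stood at 122 against 0.0583 CPM. Pln, the regulator of the store's calcium pump, stood at 168 ± 106 CPM in smooth muscle and at 0 in the epithelium of each library. Fitted values of genes at or near 0 in 1 group, and their SE, depend on the model's prior count.

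Potassium channel and coupling genes followed. All 4 potassium channel genes tested were higher in smooth muscle, among them the KATP channel genes Kcnj8 (6.77 ± 1.13) and Abcc9 (6.57 ± 0.83) and the voltage-gated Kcna5 (8.88 ± 1.15), though Kcnj8 is also one of the pericyte genes. Of 5 coupling and pacemaker genes, the connexins Gjc1 (8.04 ± 0.67; 170 ± 86.1 against 0.640 ± 0.555 CPM) and Gja4 (7.43 ± 1.01) and the transcription factor Etv1 (1.76 ± 0.62) were higher. Kit, the receptor that marks interstitial cells of Cajal, was lower in smooth muscle (−5.59 ± 0.96; edgeR adjusted p = 1.8e-05), at 5.19 ± 5.41 CPM against 148 ± 28.2 CPM in epithelium. The pacemaker channel gene Hcn2 was at 0.982 ± 2.40 CPM in smooth muscle.

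Of 10 genes of epithelial ion and water transport 6 were tested. Of the 5 that passed the filter without epithelium, 4 were lower in smooth muscle and none was higher. Aqp5, a water channel of secretory glands, stood at 458, 245 and 233 CPM in the epithelium of young female, the library labelled middle-aged male and aged female and at 0 in all smooth muscle. Scnn1a (−3.68 ± 0.77), a subunit of the epithelial sodium channel, and Atp1b1 (−2.99 ± 0.74), the beta subunit of the sodium pump, were also lower, and with DESeq2 3 of the 6 were called. Clca3a1 was also fitted as lower (−2.71 ± 0.99; edgeR adjusted p = 0.0330), but 6 UMIs in 7 aged female barcodes put its mean level higher in smooth muscle (41.0 against 16.4 CPM), since sums under 20 barcodes were not in the fit. Among proteins that bind or regulate the channel, 5 of 9 were higher and 1 lower in smooth muscle, and 3 were higher without the library labelled middle-aged male. Camk2g, a calmodulin-dependent kinase (3.05 ± 0.41), and Msn (moesin, 2.31 ± 0.31) were higher, and the related Ezr (ezrin) was lower (−4.90 ± 0.50; edgeR adjusted p = 5.4e-10; 27.6 ± 36.2 against 627 ± 155 CPM).

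**Figure D5:**
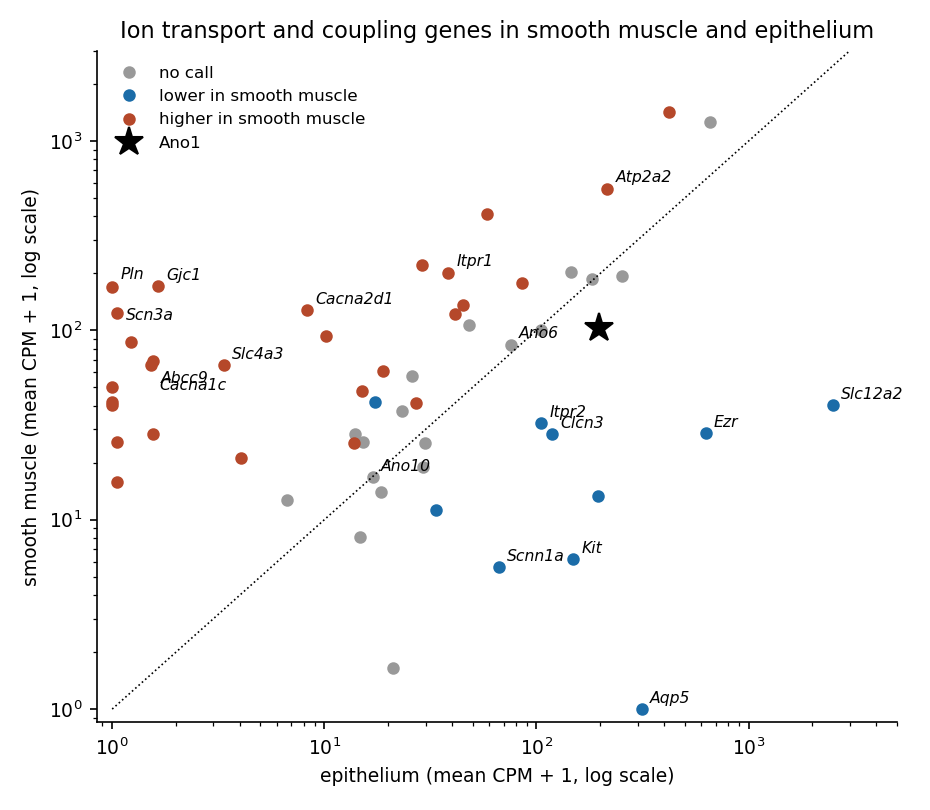
Mean level (CPM + 1, log axes) of listed genes in epithelium (horizontal) and smooth muscle (vertical), with the call of smooth muscle against epithelium in colour, the dotted line at equal level and Ano1 as a star. The lower call above the line is Clca3a1. Ano1 lies at 196 and 102, and Slc12a2, Ezr, Kit and Aqp5 lie far to the epithelial side and Pln, Scn3a and Gjc1 to the smooth muscle side. Pln, Scn3a and Aqp5 are among the genes that passed the filter on low counts through 1 type only, so their calls are not independent of it.

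Against the mean of the other types fitted, 26 of the 58 listed genes (44.8%) were higher and 6 (10.3%) lower in smooth muscle, where 18.0% and 9.55% of all genes were called. The pericyte gate, basal epithelium, mast, Schwann and skeletal myogenic barcodes were not in that mean. Of the 49 that did not depend on 1 type for the filter, 18 were higher and 6 lower. In epithelium 20 (34.5%) were higher and 11 (19.0%) lower, against 31.5% and 13.3% of all genes, so the share of higher calls was near that of all genes. The lower calls in epithelium numbered 6 without young female.

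Age left no change of Ano1 in smooth muscle that passed a test. With sums of at least 20 barcodes, 4 libraries were left and a model of age and labelled sex had no residual degree of freedom, so sums of at least 5 barcodes are given (6 sums, 2 residual degrees of freedom), a choice made after seeing the data. Middle-aged minus young was −0.61 ± 0.54 on the log2 scale (SE; edgeR adjusted p = 0.777), and the interval of 2 SE runs from −1.69 to 0.47. Aged minus young was −0.00 ± 0.62 (adjusted p = 1.000; −1.24 to 1.24), and aged minus middle-aged 0.61 ± 0.62 (adjusted p = 0.999; −0.63 to 1.84). Differences inside these intervals are not excluded by these data.

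Few genes passed in these age contrasts, 0.182% of 2192 in the first, 0.137% in the second and 0% in the third, where edgeR called none, DESeq2 none and 60 genes had an unadjusted p under 0.05. The genes called were the fibrillar collagen genes Col3a1, Col1a1 and Col1a2, lower in both older groups than in young, and Lpl, lower at middle age; they were named after their values were seen. Fibroblast genes in the smooth muscle barcodes summed to 2747 CPM in young male and 1374 CPM in young female, against 951 and 141 CPM in the libraries labelled middle-aged male and female and 577 and 179 CPM in aged male and female, and the part of this in the collagen calls was not tested. None of the 23 listed genes tested passed in any of the 3 contrasts.

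Genes found together with Ano1 were sought by splitting the barcodes of a type by whether they held an Ano1 UMI, in libraries with at least 10 barcodes on each side. In smooth muscle 3 libraries qualified (38 barcodes with and 62 without in young male, 11 and 15 in aged male, 11 and 25 in the library labelled middle-aged female), with median depths from 2929.5 to 7329 UMIs with and 3331 to 7444 without. Apart from Ano1, edgeR called 0 of 2147 genes (0%), DESeq2 called 0, and 74 genes had an unadjusted p under 0.05. The smallest p values, none past the threshold (edgeR adjusted p = 0.994), belonged to Timp3, a matrix metalloproteinase inhibitor, Nr2f2, a transcription factor of venous and lymphatic identity, Tnfaip2, the endothelin receptor gene Ednrb and Dpysl3. Timp3 was at 2322 against 1043 CPM in young male, 3332 against 1338 CPM in aged male and 2656 against 1348 CPM in the library labelled middle-aged female, higher with Ano1 in 3 of 3. Nr2f2 and Tnfaip2 were also higher with Ano1 in each of these libraries, and Dpysl3 was lower in each. Ednrb was higher in young male and in the library labelled middle-aged female, but lower in aged male (71.9 against 99.1 CPM). These genes were picked by their p, so their directions are a description. Without a filter on low counts 4 genes were called.

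In epithelium few genes were found with Ano1. Of 7592 genes, 5 were called (0.0659%), 4 higher and 1 lower. Before adjustment 366 genes had a p under 0.05, and DESeq2 made 13 calls, of which 15.4% rather than 80.0% were higher. Csn1s2a, an alpha-S2-like casein, was higher in barcodes with Ano1 by 3.49 ± 0.31 on the log2 scale (SE; edgeR adjusted p = 3.5e-04), at 2.14 against 0 CPM in young female, 2067 against 188 CPM in the library labelled middle-aged male and 5213 against 497 CPM in aged female. It was higher in 3 of 3 libraries, but in young female it was close to 0. Csn2 (beta-casein), Glycam1, a mucin-like protein of milk and lymph node venules, and Wfdc12, a secreted protease inhibitor, were higher in the library labelled middle-aged male and in aged female and at 0 on both sides in young female. Csn2 was at 2665 against 579 and 4633 against 839 CPM in those libraries.

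Ccl5, a T cell chemokine, was the gene called lower with Ano1, at 3.77 against 37.1 CPM and 16.2 against 193 CPM in the same libraries, while in young female it stood at 3.21 against 0 CPM. Ccl5 was not called without Scrublet-marked barcodes, nor without barcodes that meet another gate. Barcodes with Ano1 were deeper, with median depths of 10381.5 against 3387.5 UMIs in young female, 6128 against 4557 in the library labelled middle-aged male and 23672 against 4467 in aged female. After thinning to 2000 UMIs, Csn1s2a and Csn2 were the 2 genes called. The split by Ano1 was made before thinning, so the side with Ano1 still held the deeper barcodes. This setting therefore cannot separate Ano1 from depth. Without the library labelled middle-aged male none of the 5 was called, and 5 other genes were. Without young female 113 genes were called, and without aged female 2, Csn1s2a and Glycam1.

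The epithelial barcodes were also split by genes of the hormone-sensing luminal state (Esr1, Pgr, Prlr, Cited1) and of luminal progenitors (Kit, Elf5, Csn3, Aldh1a3), each gate needing at least 2 UMIs and more of its own genes than of the other. Ano1 stood at 222 CPM in hormone-sensing and 158 CPM in progenitor barcodes of young female (75 and 16 barcodes), at 114 and 222 CPM in the library labelled middle-aged male (113 and 189) and at 190 and 200 CPM in aged female (24 and 152). Ano1 was therefore carried by both states in each library. The difference of hormone-sensing minus progenitor was −0.36 ± 0.31 on the log2 scale (SE; edgeR adjusted p = 0.531; interval of 2 SE −0.97 to 0.25), in a comparison that called 11.8% of 7913 genes. Slc12a2, which loads chloride into the cell, was called higher in the hormone-sensing barcodes (3.60 ± 0.43; edgeR adjusted p = 5.5e-04).

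Basal epithelium carried Ano1 unevenly, at 31.6 CPM in young female (3 UMIs in 36 barcodes), 140 CPM in the library labelled middle-aged male (34 in 101) and 270 CPM in aged female (15 in 11). The Poisson 95% intervals of young female (6.51 to 92.2 CPM) and aged female (151 to 446 CPM) did not overlap, and with 1 library an age there is no test.

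Across 14 types with sums of at least 20 barcodes (the pericyte gate had none), the genes whose mean levels were most like those of Ano1 (Pearson r of log2(CPM + 1), 11013 genes compared, a description with no test) were Glt28d2 (r = 0.948), Eps8l2 (0.926), Plek2 (0.919), Macc1 (0.919) and Gsta4 (0.912). All types come from the same 6 libraries. These 5 were highest, of the types given here, in epithelium or basal epithelium. Eps8l2, an actin regulator of epithelia, was at 55.6 CPM in epithelium, 12.5 in smooth muscle and 34.3 in blood endothelium. The leiomodin gene Lmod1 (r = 0.904), a smooth muscle actin nucleator, was led by smooth muscle instead, at 419 CPM against 15.7 CPM in epithelium and 171 CPM in basal epithelium.

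Both gates have a threshold, and the levels of Ano1 on either side of it are given as a description. Barcodes with 5 to 9 contractile UMIs, just outside the smooth muscle gate, held 69.7 CPM (100 barcodes), those with 10 to 14, just inside, 39.5 CPM (42 barcodes), and those with 15 to 29 and with 30 or more held 112 and 106 CPM. Barcodes with Epcam and 1 to 3 keratin UMIs, just outside the epithelial gate, held 210 CPM (106 barcodes), and those with 4 to 7, just inside, 254 CPM (72 barcodes).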

How the data were processed

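Single-cell 3′ libraries were made with a droplet kit (10x Genomics), per the labels' protocols. The deposited matrices hold UMI counts per gene and barcode for all barcodes, not filtered for cells, per the files' values. Cell Ranger 3.0.2 and Seurat are named in the submitters' processing notes, with the build mm10; whether counting used strand is not given in the sources used here. Barcodes were gated on marker UMIs, and barcodes meeting several of the other gates were left out. Counts were summed per library and type (at least 20 barcodes, 5 for the age comparison) and tested with edgeR 4.0.16 (TMM, filterByExpr, quasi-likelihood test, Benjamini-Hochberg adjustment at 0.05 over all genes tested), with library as a block, or with age and labelled sex. DESeq2 1.42.0 in R 4.3.3 was the alternative, and others were no filter on low counts, stricter gates, at least 1000 genes, thinning, leaving out doublets and leaving out each library. Python 3.11.15, scipy 1.17.1 and scanpy 1.11.5 (Scrublet, 6% expected doublets) were used. In simulated sums, 178 of 200 changed genes were recovered in the type fit, 192 in the smooth muscle split by Ano1 and 166 in the epithelial split. False calls numbered 11, 4 and 2. All simulated sums shared 1 mean profile apart from the changed genes, so the recovery need not hold for these data. Intervals are exact at 95% and a count of 0 is given its limit of 3 counts. A 3′ UMI count is not compared between genes. Named genes were Ano1, members of the 7 lists, called genes of the co-detection comparisons (or the 5 of smallest p) and the genes most like Ano1. The members and lists were chosen with earlier results of these data known. The pericyte-gene comparisons and the contrast with blood endothelium were added after seeing the data. Some members of the lists are counted but not reported by name or plotted here.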

Additional observations from a re-analysis of the deposited data

Results flagged for a closer look

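Ano1 in hormone-sensing minus progenitor epithelium was 64.0 CPM in young female, −108 CPM in the library labelled middle-aged male and −10.0 CPM in aged female, so the direction differed between ages with 1 library each, and this difference was not tested. Barcodes of 10 to 100 UMIs, which no comparison used, held Ano1 above the limit that a count of 0 allows in 5 libraries, at 4.15 CPM in young male, 21.8 in young female, 17.0 in the library labelled middle-aged male, 3.34 in aged male and 113 in aged female. Kept barcodes that met no gate held Ano1 above that limit at 2.60 CPM in young male, 5.36 in young female, 12.3 in the library labelled middle-aged male and 66.1 in aged female. Of the 69 ungated barcodes with Ano1, 50 held Krt8 or Krt18, 39 held Epcam and 8 held a pericyte gene.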

How the results depend on the processing

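Ano1 kept its direction and call under all 14 alternatives in smooth muscle against the mean of the other types fitted (5.27 to 6.68 on the log2 scale; 6.23 to 6.64 leaving out a library), in epithelium against that mean (6.22 to 8.08; 7.32 to 8.10) and in smooth muscle against blood endothelium (1.13 to 5.25; 1.28 to 1.63). Smooth muscle against epithelium lost its call in 8 of 14: DESeq2 gave −0.86, leaving out Scrublet-marked barcodes −0.91, stricter gates −0.93, leaving out barcodes that meet another gate −0.73, and leaving out a library −1.31 to −0.85, the cause of which was not tested. Middle-aged minus young ranged from −0.92 to −0.33 leaving out a library. Aged minus young, at −0.00, turned to 0.04 with the 12-month sex labels exchanged, 0.03 with sex left out, 0.10 in sums of at least 20 barcodes with sex left out, and −0.47 to 0.12 leaving out a library; aged minus middle-aged turned to −0.26 without barcodes that meet another gate (0.31 to 0.79 leaving out a library). None of these passed. Hormone-sensing minus progenitor ranged from −0.64 to 0.03 leaving out a library. The difference by pericyte genes was 87.1 to 102 CPM in blood endothelium leaving out a library (exact permutation p = 0.0625, the smallest that 5 libraries can give), and in smooth muscle 33.4 to 61.3 CPM, or −12.6 CPM after thinning. Genes found with Ano1 in smooth muscle numbered 4 without a filter and 0 leaving out a library. In epithelium they numbered 13 with DESeq2, 95 without a filter, 9 without Scrublet-marked barcodes, 2 after thinning, 16 with at least 1000 genes, 16 without barcodes that meet another gate and 2 to 113 leaving out a library. Thinning took the share with an Ano1 UMI to 18.3% in smooth muscle and 31.4% in epithelium, and at least 1000 genes took the latter to 71.0%. The fit by Ano1 in smooth muscle without barcodes that meet another gate could not be fitted, since 1 library was left. Between age groups libraries were matched by labelled sex only, through the model. Splits of barcodes within libraries were paired by library. Comparisons of types had library as a block, but only the library labelled middle-aged male gave sums of both smooth muscle and epithelium.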
